A study of Mus musculus with 18 samples.

Results

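The 29 genes described here make, take up, sense and export cholesterol. They were chosen by symbol and matched to the rows of the raw count table through the GENCODE M21 names of their Ensembl identifiers, and each symbol had 1 row among the 54838 rows of the table. The synthesis and uptake side, driven by the SREBP transcription factors, holds 24 genes. It has 18 enzymes, from Hmgcs1 and Acat2 at the start of the pathway to Dhcr7 at its end, the SREBP genes Srebf1 and Srebf2, their escort Scap, the retention proteins Insig1 and Insig2, and Stard4, which carries cholesterol between membranes. The efflux side, driven by the LXR nuclear receptors, holds 5 genes. These are the exporters Abca1 and Abcg1, the receptors Nr1h3 (LXR alpha) and Nr1h2 (LXR beta), and Mylip, an E3 ligase that marks lipoprotein receptors for degradation. All 29 passed the filter on low counts.

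When membranes of the endoplasmic reticulum are poor in cholesterol, Scap escorts SREBP proteins to the Golgi, where proteases release the part that enters the nucleus and switches on the enzymes of synthesis and the genes of uptake. When cholesterol is plentiful, the Insig proteins hold Scap and SREBP back, and oxysterols made from cholesterol bind LXR, which switches on the exporters. In macrophages and other myeloid cells, which take up lipid from dying cells, the opposed programs keep free cholesterol within limits.

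The cells were wild-type C57BL/6 mouse cells. Bone marrow was cultured for 5 days into MDSC, short for myeloid-derived suppressor cells, a class of immature cells known to restrain T cells, and these were sorted into a Cd11b high, Ly6G high, Ly6C intermediate population, called LY6G here, and a Cd11b high, Ly6G negative, Ly6C high population, called LY6C. Sorted cells were plated again and harvested the next day after incubation with cycloheximide, which stalls ribosomes on mRNA. Bone marrow (BM) was flushed from femurs of 3 mice, freed of red cells by lysis and used unsorted, with no culture given in the labels. Total RNA and the RNA of pooled polysome fractions of a sucrose gradient were sequenced in each kind of sample, 3 libraries each, so 18 libraries formed 6 groups. The sorted libraries carry the replicate numbers 2, 3 and 6 and the BM libraries 1, 2 and 3. No age, sex or further treatment is given, and comparisons with BM also set cultured cells against fresh ones.

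The DNA just before the start of 5 of these genes is printed first, because the letters CCAAT were common in it on the synthesis side. RefSeq promoter sequences of the build GRCm38.p6 were found for 24 of the 29 genes, and not for Fdps, Fdft1, Sqle, Stard4 and Abcg1. The 250 bases before the start were searched on both strands for CCAAT, the binding letters of NF-Y, a known partner of SREBP, for TCACNCCAC, a form of the sterol regulatory element (SRE), and for the DR4 element bound by LXR with RXR, which is AGGTCA, any 4 bases and AGGTCA again. CCAAT was found in 18 of the 20 synthesis side genes with a promoter, all but Scap and Acat2, and in 1 of 4 efflux side genes, Mylip. Among all 27025 genes with a promoter in the table, 37.5% had a CCAAT. The SRE letters were in Hmgcs1 and in no other of the 24, against 1.22% of all genes. The direct repeat was in none of the 24, against 0.0148%, or 4 of all 27025 genes. It was searched without mismatches, so a blank cannot decide whether a gene holds an LXR element with other letters. Each sequence below reads 5′ to 3′ toward the gene and ends at the base before its start, and capitals mark CCAAT on either strand (ATTGG on the strand shown) and, in Hmgcs1, also the SRE letters. Hmgcs1, Mvd and Ebp are synthesis enzymes that passed tests below, and Mylip is the efflux side gene with CCAAT. Abca1 has no match to the letters searched, which does not show that its promoter lacks an LXR element.
Hmgcs1 (chr13:119690101-119690350, + strand): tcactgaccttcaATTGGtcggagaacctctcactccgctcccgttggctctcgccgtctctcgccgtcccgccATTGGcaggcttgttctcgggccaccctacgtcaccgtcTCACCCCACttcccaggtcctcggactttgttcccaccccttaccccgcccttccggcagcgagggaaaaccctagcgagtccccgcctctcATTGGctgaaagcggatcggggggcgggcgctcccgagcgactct
Mvd (chr8:122443423-122443672, - strand): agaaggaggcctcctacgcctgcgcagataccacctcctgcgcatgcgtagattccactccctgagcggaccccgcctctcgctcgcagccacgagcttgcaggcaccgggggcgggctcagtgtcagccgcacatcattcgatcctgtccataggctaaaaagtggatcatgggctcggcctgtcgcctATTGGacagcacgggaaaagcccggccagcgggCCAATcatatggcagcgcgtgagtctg
Ebp (chrX:8193513-8193762, - strand): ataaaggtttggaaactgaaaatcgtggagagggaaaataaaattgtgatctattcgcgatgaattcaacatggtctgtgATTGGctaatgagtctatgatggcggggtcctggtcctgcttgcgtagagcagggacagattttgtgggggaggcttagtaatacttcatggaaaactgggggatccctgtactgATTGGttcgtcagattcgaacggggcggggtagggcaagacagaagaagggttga
Mylip (chr13:45389492-45389741, + strand): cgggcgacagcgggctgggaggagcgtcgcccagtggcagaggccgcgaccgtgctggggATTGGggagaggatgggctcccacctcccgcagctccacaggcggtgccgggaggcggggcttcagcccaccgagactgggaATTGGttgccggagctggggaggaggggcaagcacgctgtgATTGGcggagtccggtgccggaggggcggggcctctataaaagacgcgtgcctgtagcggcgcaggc
Abca1 (chr4:53159896-53160145, - strand): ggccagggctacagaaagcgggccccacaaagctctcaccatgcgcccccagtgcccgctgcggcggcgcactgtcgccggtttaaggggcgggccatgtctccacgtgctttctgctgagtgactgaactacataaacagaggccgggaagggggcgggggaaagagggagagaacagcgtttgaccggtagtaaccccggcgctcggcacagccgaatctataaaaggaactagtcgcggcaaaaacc
A match of letters describes the sequence and does not show that a factor binds there.

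The counts available for these genes differed far more between sorted cells and BM than within sorted cells. Levels are given in CPM, the usual scaling of counts to library size, with library sizes adjusted by the TMM method. One CPM stood for 18.04 to 110 counts in the 12 sorted libraries, for 1.73 to 3.51 counts in polysomal BM libraries and for 0.472 to 0.611 counts in BM total RNA. The 29 genes together held 8302 to 52204 counts in a sorted library, 281 to 490 in a BM polysomal library and 51 to 63 in a BM total library. BM total RNA was not sequenced less, with 19776431 to 26225431 counts per library against 8559897 to 21138649 in sorted cells. Nuclear protein-coding genes took 37.3% to 94.6% of all counts in sorted cells and 0.232% to 3.71% in BM. The sorted cells held markers of monocytes and macrophages at a summed 857 to 2964 CPM (10 genes, BM 84.7 to 202) and of neutrophils at 512 to 3559 CPM (11 genes, BM 622 to 2199). Ly6g RNA followed the sort labels in number 6 alone, where LY6G held 8.73 CPM in total and 11.7 in polysomal RNA against 4.16 and 3.13 in LY6C. In number 2 LY6G held 1.62 CPM in total and 1.91 in polysomal RNA, beside 1.84 and 1.85 for LY6C. In number 3 the level was lower in LY6G, at 1.73 and 1.43 CPM, than in LY6C, at 4.16 and 4.27. Results between the populations are therefore also given by number and without the LY6C libraries numbered 3. Ly6c2 was higher in LY6C of each number and fraction, with group means of 84.2 and 283 CPM in LY6C and 58.3 and 92.8 in LY6G total and polysomal RNA. Erythroid markers summed to 0.111 to 0.700 CPM in sorted cells and 303 to 727 in BM, and markers of stroma and endothelium to 7.43 to 49.4 and 2028 to 6886 CPM. In bulk samples, fewer cells of a type and less RNA per cell cannot be told apart.

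Per kilobase of exon, averaged over the 12 sorted libraries, the exporter Abca1 was the most abundant of the 29 at 9.74 CPM per kb, followed by Srebf2 at 8.57, Insig1 at 7.82, Abcg1 at 7.28 and Hmgcs1 at 5.70. Srebf1, whose product also drives fatty acid genes, stood at 4.98 CPM per kb and Nr1h2 at 4.41. LXR alpha (Nr1h3) was near the bottom at 0.296 CPM per kb, so the ubiquitous LXR beta was the receptor with the higher level per length. The lowest enzymes were Fdps, which makes farnesyl diphosphate, at 0.180 and Tm7sf2, a sterol reductase, at 0.170 CPM per kb. The place of Abca1 rests on the libraries numbered 6: its group means, 98.4 ± 144 (SD, n = 3) CPM in LY6C polysomal and 94.2 ± 142 in LY6C total RNA, 127 ± 166 in LY6G polysomal and 84.6 ± 102 in LY6G total RNA, all have an SD above the mean. Neighbours in the order of levels, such as Srebf2 and Insig1, differed by less than their spread between libraries. The exons of Fdps and Tm7sf2 overlap a gene on the same strand (Gm43738 over 1124 bases, Vps51 over 532 bases), and Acat2 has a near-identical paralog, so counts of these genes are uncertain. The strand setting of the counts is not known, so overlaps on the opposite strand add to this. Among them are Fdft1 with Ctsb (774 bases), Scap with 5830462I19Rik (985 bases) and Hmgcs1 with Gm48342 (557 bases).

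The widest differences within the sorted cells lay between replicate numbers, and the sides of the pathway had opposite signs there. Libraries with 1 number in both populations and fractions resembled each other (correlation of their deviations from the group means 0.267 to 0.737), so same-numbered libraries were treated as sharing a source, which the labels do not state. With 1 source per number there is no test between numbers, and these values describe the libraries. For Abca1, LY6C total RNA held 18.1, 6.76 and 258 CPM and LY6C polysomal RNA 22.9, 7.998 and 264 CPM in numbers 2, 3 and 6. LY6G total RNA held 27.7, 23.8 and 202 CPM and LY6G polysomal RNA 30.7, 31.1 and 318 CPM of Abca1. Number 6 was thus far above both others in each group, and LY6C number 3 the lowest. Hmgcs1, the enzyme that makes HMG-CoA, ran the other way. It stood at 21.9, 46.8 and 12.0 CPM in LY6C total RNA, 26.8, 51.7 and 21.8 in LY6C polysomal RNA, 20.5, 31.5 and 10.3 in LY6G total RNA and 23.5, 32.7 and 14.8 in LY6G polysomal RNA. Number 3 was the highest and number 6 the lowest in all of them.

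Most of the synthesis side was also high in number 3 and low in number 6 when set against the mean of the other numbers. Each number was compared with the mean log2 CPM of the other numbers in the 4 combinations of population and fraction. Number 3 was above in 4 of 4 for 21 of the 24 synthesis side genes, against 21.4% of all 14181 genes tested, and below in 4 of 4 for 4 of the 5 efflux side genes (Abca1, Nr1h2, Nr1h3 and Mylip), against 21% of all genes. Number 6 was below in 4 of 4 for 18 of 24 synthesis side genes, against 19.5% of all genes, and above for 3 of 5 efflux side genes (Abca1, Nr1h3 and Mylip), against 20.5%. Number 2 was above in 4 of 4 for 2 synthesis side genes (17.5% of all genes) and below for 5 (17.3%). The numbers are not independent, since a gene high in one pulls the others down by construction. A gene below in number 6 need not be lowest there. Lss, for example, held 5.83, 16.1 and 8.73 CPM in LY6C polysomal RNA of numbers 2, 3 and 6.

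In number 3 the median synthesis side gene was 1.30 above the others on the log2 scale in LY6C total RNA, 0.90 in LY6C polysomal RNA, 0.80 in LY6G total RNA and 0.65 in LY6G polysomal RNA. In number 6 these medians were -1.09, -0.68, -0.99 and -0.68, while the median of all genes stayed between -0.06 and 0.05 for either number. Squalene epoxidase (Sqle), a rate-limiting oxygenase, was 1.76, 1.25, 1.36 and 0.97 above in number 3, in the same order, and -1.67, -0.80, -1.74 and -1.35 in number 6. Stard4 was 0.94 to 1.87 above in number 3 and -1.71 to -1.15 in number 6, and Insig1, itself an SREBP target, 0.68 to 1.21 above and -1.67 to -1.22. Srebf2 shared the order with smaller differences, 0.50 to 0.80 above in number 3. Srebf1 was the synthesis side gene above in 4 of 4 with number 6, by 0.07 to 0.30, and it was also above with number 3, by 0.06 to 0.28. Ebp, Insig2 and Scap had no common direction in number 3.

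**Figure D1:**
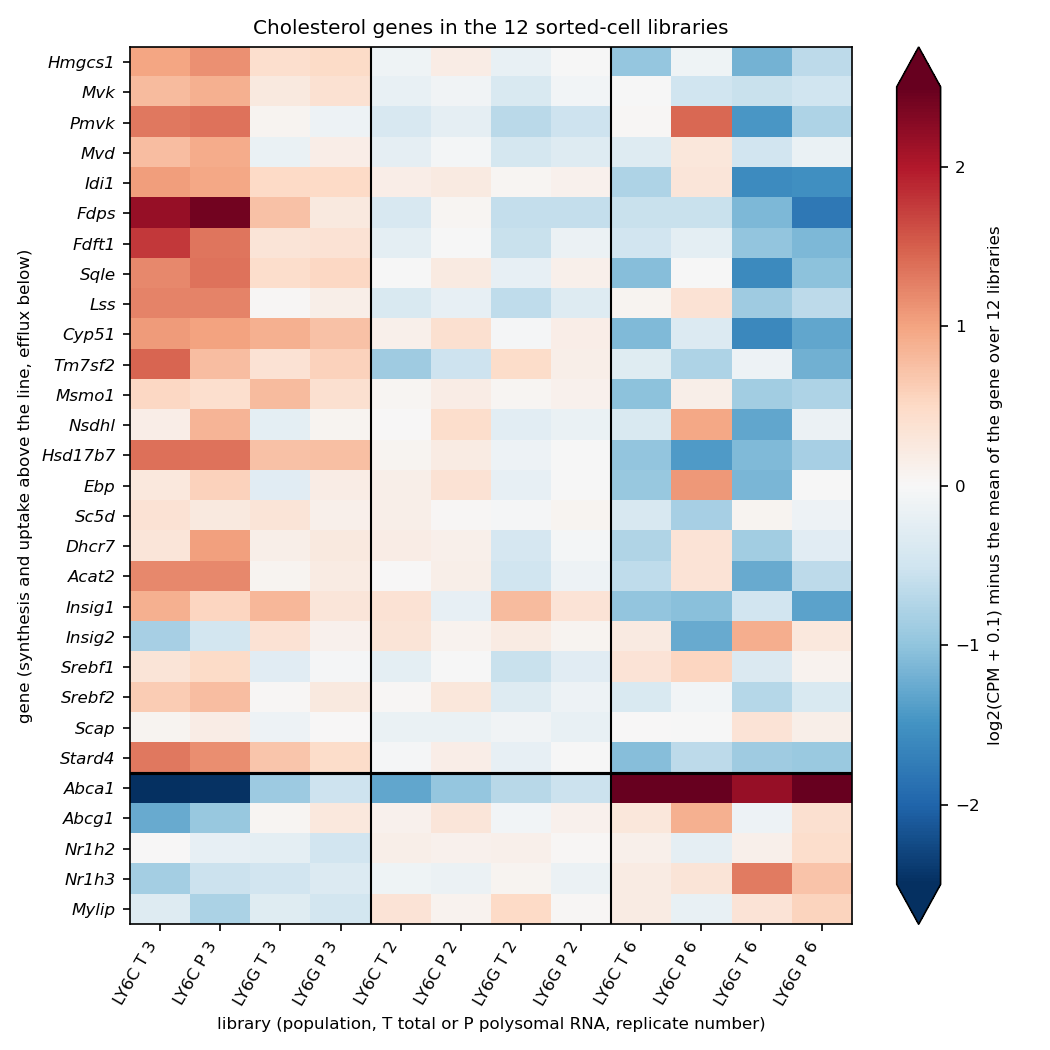
Heat map of the 29 genes (rows) in the 12 sorted-cell libraries (columns, grouped by replicate number 3, 2 and 6), coloured by log2(CPM + 0.1) minus the mean of the gene over the 12 libraries. The libraries numbered 3 are mostly red above the line that divides the sides and blue below it for Abca1, and those numbered 6 the reverse.

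The summed CPM of the 18 enzymes makes the contrast visible in 1 number per library. It was 94.0, 198 and 61.6 CPM in LY6C total RNA and 109, 205 and 114 in LY6C polysomal RNA for numbers 2, 3 and 6. In LY6G it was 82.9, 127 and 47.1 CPM in total and 95.4, 129 and 62.5 CPM in polysomal RNA. Divided by Abca1, the sum came to 25.7 and 29.3 in the LY6C libraries numbered 3, 0.197 to 0.430 in the 4 libraries numbered 6 and 2.99 to 5.34 in the other 6 sorted libraries. Abcg1 followed Abca1 in LY6C, where total RNA held 53.9, 20.8 and 60.8 CPM and polysomal RNA 61.8, 25.6 and 91.9 CPM. In LY6G its range was narrow, 45.3 to 51.1 CPM in total and 54.0 to 65.6 CPM in polysomal RNA, and overlapped between numbers.

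**Figure D2:**
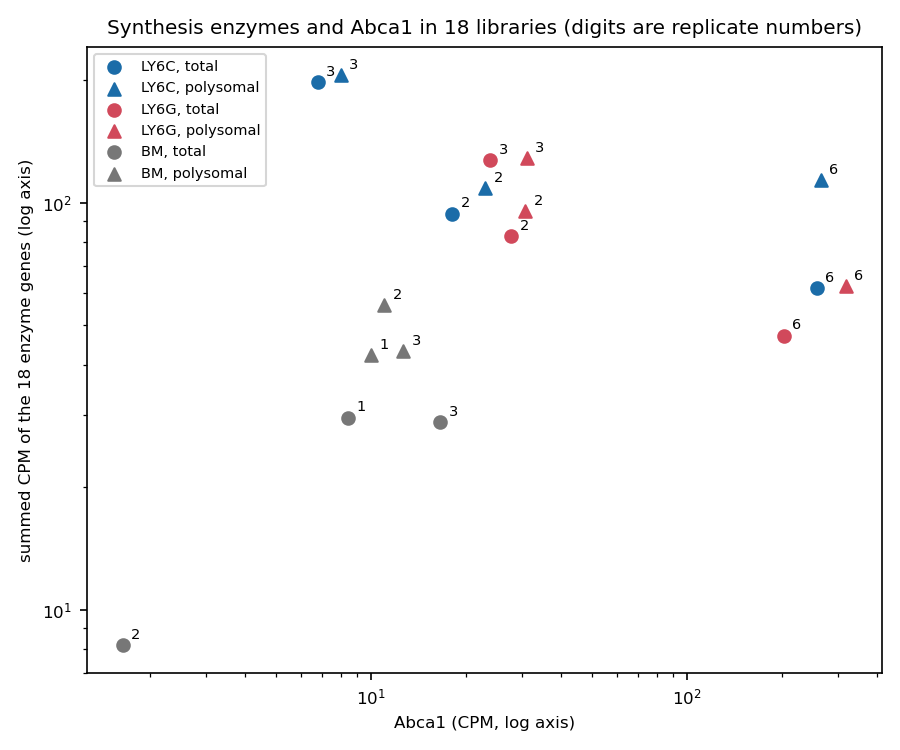
Summed CPM of the 18 enzyme genes against the CPM of Abca1 in each of the 18 libraries, both on log axes, with the population as colour, the fraction as shape and the replicate number as a digit. The 4 sorted libraries numbered 6 sit at 202 to 318 CPM of Abca1, and the LY6C libraries numbered 3 at 6.76 and 7.998 CPM with the highest enzyme sums.

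Other transcripts moved with the numbers as well. All 8 cell cycle markers were above in 4 of 4 in number 3 and below in number 6, with a summed 166, 408 and 76.4 CPM in LY6C total RNA and 135, 226 and 37.0 CPM in LY6G total RNA for numbers 2, 3 and 6. Of 11 neutrophil markers, 6 were above and 1 below in number 3, and 7 below and 1 above in number 6. Summed neutrophil markers reached 2885 CPM in LY6C total RNA number 3, against 1227 and 512 in numbers 2 and 6. In LY6G total RNA the sums were 1025, 1005 and 659 CPM in numbers 2, 3 and 6, so number 3 was not the highest there. Of 10 monocyte and macrophage markers, 4 were below and 1 above in number 3, and 4 above and 1 below in number 6. Their sums for numbers 2, 3 and 6 were 2012, 857 and 1436 CPM in LY6C total RNA. In LY6G total RNA they were 1705, 1892 and 1430 CPM, so number 3 was not the lowest there. All 4 megakaryocyte and platelet markers tested were below in number 3, and the summed list reached 342 CPM in LY6C polysomal RNA number 6, against 36.5 and 14.2 in numbers 2 and 3. Of 7 stroma and endothelium markers tested, 5 were above in number 6. Among all genes tested, 21.4% were above and 21% below in number 3, and 20.5% above and 19.5% below in number 6. The LY6C libraries numbered 3 and 6 were the shallowest of the sorted cells, with 18.04 to 39.4 counts per CPM. The part of cell cycle, cell type and depth in the contrast was not tested.

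Between LY6G and LY6C no gene of the pathway passed the test. With edgeR's quasi-likelihood test at an adjusted p under 0.05, 0 of 29 were called in total RNA and 0 of 29 in polysomal RNA, as were 0% of all genes tested in either fraction. At an unadjusted p under 0.05, 0 of the 29 and 565 of all genes stood in total RNA, and 1 of the 29 (Pmvk) and 833 of all genes in polysomal RNA. DESeq2 called 0 genes in either. The synthesis side leaned to LY6C: 19 of 24 had a negative LY6G minus LY6C difference in total RNA (median -0.44 on the log2 scale, all genes 0.00) and 20 of 24 in polysomal RNA (median -0.48, all genes -0.03). The efflux side had medians of 0.08 and 0.26. Cell cycle markers had medians of -0.63 in total and -0.71 in polysomal RNA in the same comparison, and neutrophil markers -0.34 and -0.36, and their part in the lean was not tested.

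Taken pair by pair, with LY6G set against LY6C of the same number and fraction, 15 of the 24 synthesis side genes were lower in LY6G in 6 of 6 pairs, against 14% of all genes, and 0 of the 5 efflux side genes were. No member was higher in 6 of 6 under the reported scaling, against 11.3% of all genes. Under each of the 4 other scalings tried, Nr1h3 was higher in 6 of 6. Mylip was so with median-ratio factors and with nuclear protein-coding counts without factors, and Scap with median-ratio factors. With median-ratio factors 2639 of all 14181 genes were higher in 6 of 6. The 6 pairs stem from 3 numbers, and total and polysomal RNA of a number were taken to share a source. The 15 are Hmgcs1, Acat2, Pmvk, Mvd, Idi1, Fdps, Fdft1, Sqle, Lss, Cyp51, Nsdhl, Ebp, Dhcr7, Srebf1 and Srebf2. Under the 4 other scalings tried, the count was 13 to 15, with Cyp51, Dhcr7 or Srebf2 at 5 of 6 in some. Groups were separate, all 3 LY6G libraries below all 3 LY6C libraries, for Srebf1 in total RNA (18.4, 22.4 and 21.3 against 23.1, 34.2 and 34.5 CPM, 5.28% of all genes). In polysomal RNA they were separate for Nsdhl and Ebp (7.05% of all genes). Neither count is above its share of all genes. No member had all LY6G libraries above, against 7.04% and 7.74% of all genes.

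Srebf1 averaged 30.6 ± 6.501 (SD, n = 3) CPM in LY6C and 20.7 ± 2.06 in LY6G total RNA, a log2 difference of -0.56 ± 0.30 (SE, edgeR adjusted p = 1), and -0.42 ± 0.30 in polysomal RNA (adjusted p = 0.866). Srebf2 differed by -0.46 ± 0.34 in total and -0.43 ± 0.34 in polysomal RNA, and by -0.32 to -0.60 in each pair. Hmgcs1 differed by -0.37 ± 0.51 and -0.50 ± 0.51, and Sqle by -0.55 ± 0.59 and -0.66 ± 0.58. Idi1, the isopentenyl diphosphate isomerase, differed by -0.12 to -1.94 and Stard4 by -0.70 to 0.17 in the pairs. The synthesis side genes with a positive fitted difference were Msmo1, Sc5d, Insig1, Insig2 and Scap in total RNA and Tm7sf2, Sc5d, Insig1 and Insig2 in polysomal RNA. Insig1 differed by 0.21 ± 0.60 and 0.05 ± 0.59, and Insig2 was higher in LY6G in 4 of 6 pairs, by up to 1.58.

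On the efflux side Abca1 differed by -0.15 ± 1.43 in total and 0.36 ± 1.43 in polysomal RNA, with pairs from -0.35 to 1.95. Abcg1 was 1.30 and 1.22 higher in LY6G in the pairs numbered 3 and lower in the other 4, from -0.19 to -0.49. Nr1h3 was higher in LY6G in 5 of 6 pairs, by up to 1.15, and Mylip in 5 of 6, by up to 0.76. Without the 2 LY6C libraries numbered 3, Hmgcs1 and Sqle turned to 0.28 and 0.21 in total RNA and the median of the 29 to 0.04, from -0.37. Srebf1 and Srebf2 kept theirs without these libraries, at -0.48 and -0.15. With the replicate number as a block, the fit still called 0 members in both fractions.

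**Figure D3:**
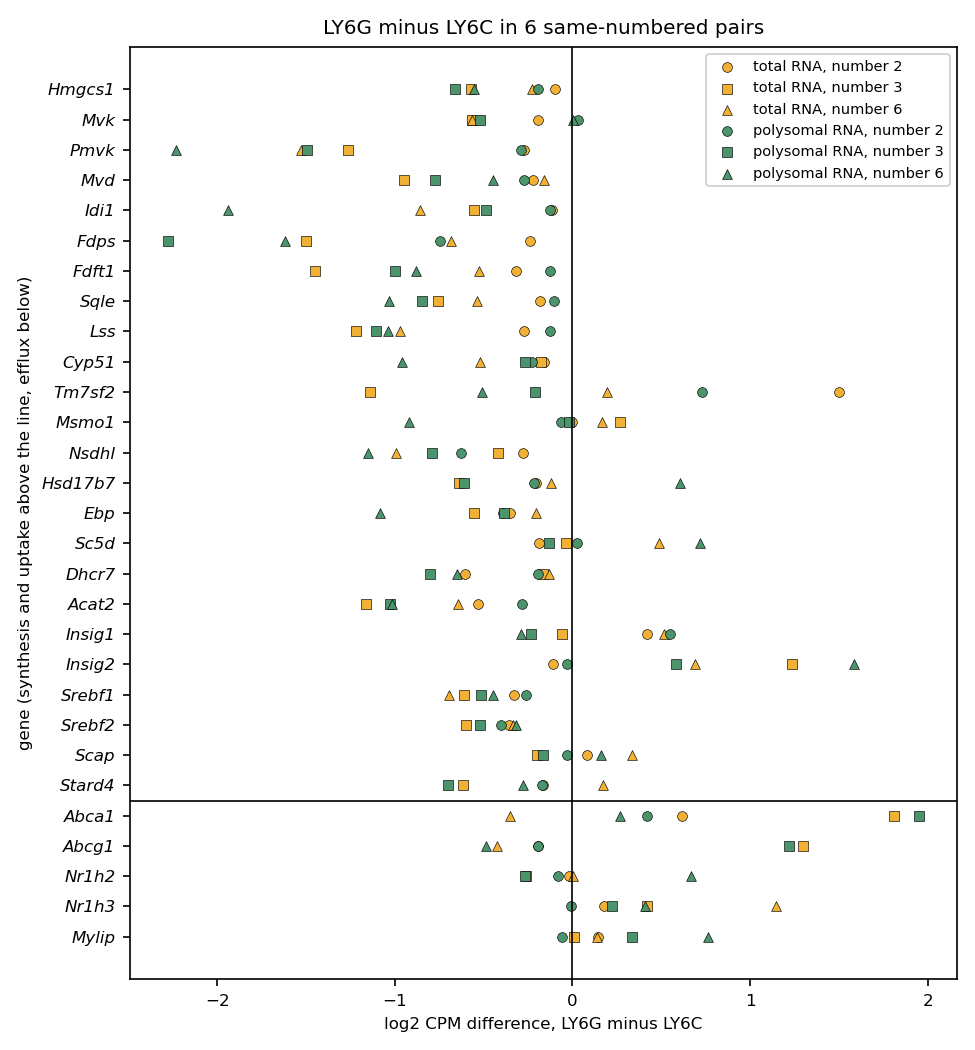
Log2 CPM difference, LY6G minus LY6C, for each of the 29 genes in the 6 pairs of libraries with the same replicate number (colour for the fraction, shape for the number), the synthesis side above the line and the efflux side below. Most synthesis enzymes have all 6 points left of 0, with number 2 nearest to 0 for Hmgcs1, Sqle and Lss among others, and the Abca1 points range from -0.35 to 1.95.

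Against bone marrow, polysomal RNA gives the firmer comparison, since 28 of the 29 genes had more than 3 counts there. In LY6C 13 of 29 members were higher and 0 lower, against 20.2% of all genes called higher and 11.2% called lower. In LY6G 8 of 29 were higher and 0 lower, against 22.1% and 15.3%, so the count called higher was near the share of all genes. The synthesis side gave 12 of 24 in LY6C and 7 of 24 in LY6G, and the efflux side 1 of 5, Abcg1, in each. Member medians were 1.51 in LY6C and 1.05 in LY6G on the log2 scale, beside 0.51 and 0.44 for all genes. The comparisons share the BM libraries. Markers of monocytes and macrophages were higher, and erythroid and stromal markers lower, in sorted cells than in BM in every library (summed CPM above), and their part in these differences was not tested. With the replicate block, which also joins same-numbered BM libraries though their pairing was not shown, the counts were 17 and 15.

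Insig1 held 18.5, 31.1 and 10.3 CPM in LY6C and 27.1, 26.5 and 8.41 CPM in LY6G polysomal RNA, and 0.285, 2.89 and 3.87 CPM in BM. All sorted libraries were above all BM libraries. The difference was 3.15 ± 0.76 (SE, edgeR adjusted p = 0.00507) in LY6C and 3.20 ± 0.76 (adjusted p = 0.00372) in LY6G, the largest among the called members in either population. Hmgcs1 held 4.28, 11.0 and 4.22 CPM in BM polysomal RNA, below every sorted library, and differed by 2.43 ± 0.58 (adjusted p = 0.00352) in LY6C and 1.93 ± 0.58 (adjusted p = 0.0127) in LY6G. Msmo1, a sterol-C4 demethylase, held 10.1, 12.0 and 9.86 CPM in LY6C, 9.68, 11.9 and 5.18 in LY6G and 1.71, 3.47 and 0.703 in BM, again without overlap. It differed by 2.54 ± 0.61 (adjusted p = 0.00334) and 2.28 ± 0.61 (adjusted p = 0.00590).

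Abcg1, which loads cholesterol on HDL particles, was the called member of the efflux side. BM polysomal RNA held 6.56, 9.83 and 11.9 CPM, below the 25.6 to 91.9 CPM of the sorted libraries, and the difference was 2.66 ± 0.46 in both LY6C (adjusted p = 0.000191) and LY6G (adjusted p = 0.000153). Abca1 averaged 11.2 ± 1.35 (SD, n = 3) CPM in BM polysomal RNA. Its fitted difference was 3.13 ± 1.60 (adjusted p = 0.157) in LY6C and 3.49 ± 1.63 (adjusted p = 0.107) in LY6G, and without the 4 sorted libraries numbered 6 it was 0.33 (adjusted p = 0.636) and 1.34 (adjusted p = 0.0415). With the replicate block it was 1.79 (adjusted p = 0.00247) and 2.65 (adjusted p = 7.29e-05), so the call for Abca1 depends on the fit. The LY6C polysomal library numbered 3, at 7.998 CPM, lay below the BM polysomal libraries. Mylip, at 8.23 ± 4.07 CPM in BM polysomal RNA and 4.92 ± 1.47 in LY6C, differed by -0.76 ± 0.42 (adjusted p = 0.174), and its levels in LY6G overlapped those of BM. Nr1h3 averaged 0.734 ± 0.277 CPM in BM polysomal RNA, 0.637 ± 0.225 in LY6C and 0.763 ± 0.362 in LY6G.

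Of the SREBP genes, Srebf2 passed in LY6C at 1.32 ± 0.36 (adjusted p = 0.00804) and stood at 0.88 ± 0.35 (adjusted p = 0.0551) in LY6G, where it was called under 7 of 9 alternatives, with the replicate block at an adjusted p of 0.00634. Srebf1 passed in LY6C at 0.89 ± 0.31 (adjusted p = 0.0333), a call lost under 6 of 9 alternatives, and stood at 0.47 ± 0.31 (adjusted p = 0.236) in LY6G. Stard4 rose in both, by 2.502 ± 0.65 and 2.04 ± 0.65, as did Mvd (2.28 ± 0.52 and 1.74 ± 0.52), Ebp (2.05 ± 0.45 and 1.40 ± 0.45) and Mvk (1.89 ± 0.59 and 1.64 ± 0.59). With the replicate block Idi1 (adjusted p = 0.0330) was also called in LY6C. Sqle passed in LY6C at 2.43 ± 0.73 (adjusted p = 0.0167) and stood at 1.78 ± 0.72 (adjusted p = 0.0624) in LY6G, where 8 of 9 alternatives called it, the replicate block at an adjusted p of 0.00233. Lss (1.89 ± 0.70) and Dhcr7 (1.85 ± 0.69) passed in LY6C, each a call lost under 4 of 9 alternatives, and Mvk in LY6C lost its call under 2 of 9. A call in 1 population does not by itself show a difference between them, and the direct test of LY6G against LY6C called none of these genes. Idi1 (1.65 ± 0.83 and 1.01 ± 0.83) and Insig2 (0.53 ± 0.57 and 1.11 ± 0.57) passed in neither. Without the LY6C polysomal library numbered 3, 8 members were called in LY6C, and without either BM polysomal library 1 or 3, 5 were called in LY6G.

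**Figure D4:**
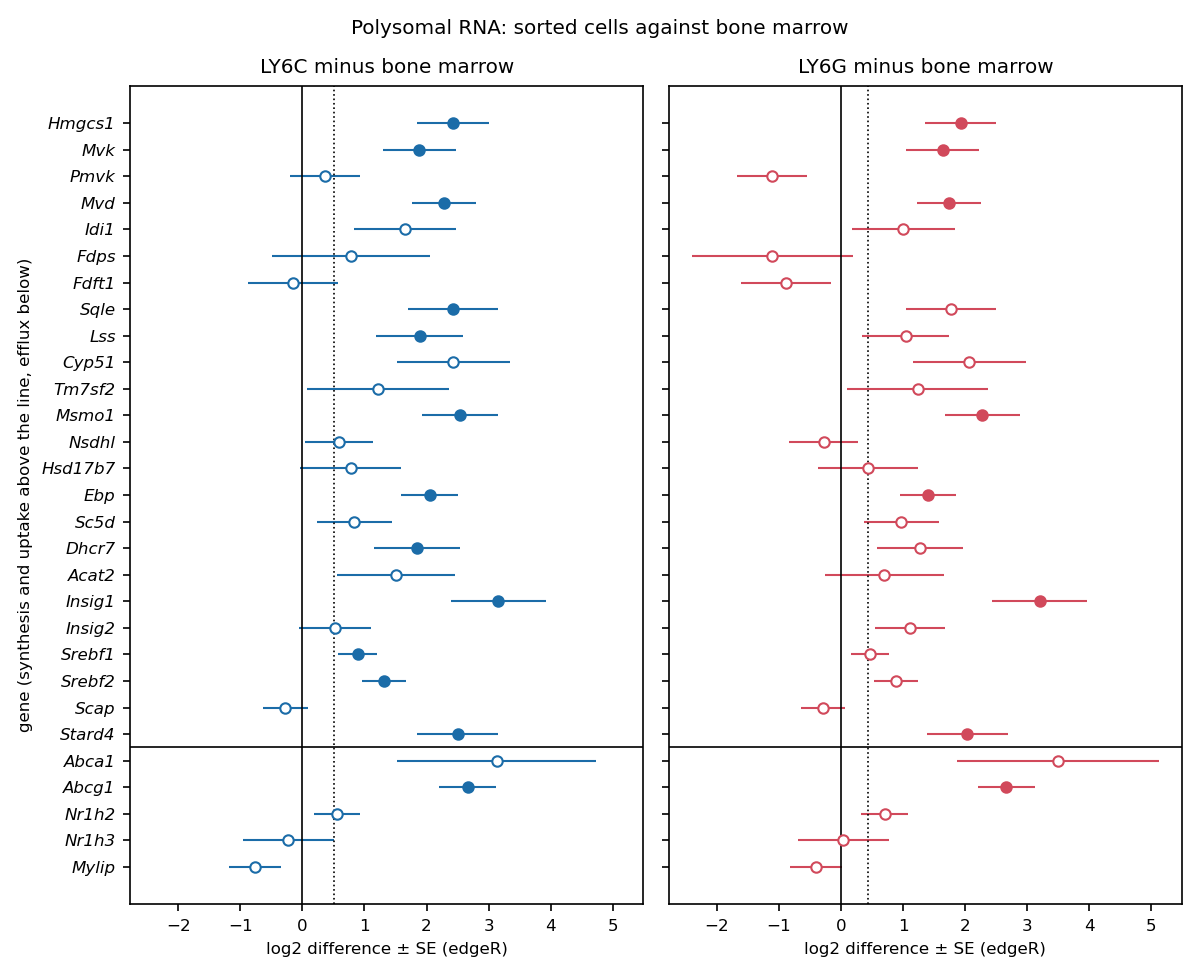
Log2 difference in polysomal RNA of LY6C (left) and LY6G (right) against BM for each of the 29 genes with its standard error from edgeR; filled points have an adjusted p under 0.05, and the dotted line is the median of all genes. Filled points number 13 in LY6C and 8 in LY6G, all of them right of 0.

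All 3 sorted libraries were above all 3 BM libraries in polysomal RNA for 16 of 29 members in LY6C, against 34.7% of all genes. In LY6G this held for 13 of 29, near the 41.1% of all genes. The reverse held for 0 in LY6C (14% of all genes) and 1 in LY6G (19.5%), Pmvk, with 2.73 to 4.32 CPM in LY6G and 5.20 to 8.84 in BM.

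In total RNA the BM libraries held too few counts of most members. Over all 3 libraries together, 13 members had 0 counts, 6 had 1 to 3 counts and 10 had more. The test called 10 of 29 higher and 0 lower in LY6C (20.5% and 7.4% of all genes) and 10 and 0 in LY6G (21.5% and 9.39%), namely Hmgcs1, Mvd, Sqle, Msmo1, Ebp, Insig1, Insig2, Srebf2, Abcg1 and Nr1h2 in both. Of all genes, 2913 were called higher and 1050 lower in LY6C, a split that turned to 2185 and 2239 with DESeq2 and 2103 and 1256 with median-ratio factors. In LY6G the split was 3043 and 1331, and 2622 and 2473 with DESeq2. Fitted medians of 3.89 and 3.85 rest on the genes at 0, and with those set to their bounds they were 1.06 and 0.79, which are medians of lower bounds in part. The fitted medians of all genes were 1.48 and 1.54, without such bounds, and are not comparable with these. All sorted libraries were above all BM libraries for 20 members in LY6C (48.5% of all genes) and 21 in LY6G (54.2%). The 13 members with 0 counts in BM are among them in both populations, since any sorted count places such a gene above. These counts therefore show no direction for members such as Fdps, Tm7sf2, Nsdhl and Nr1h3, whose lower bounds on the fold lie under 1 in both populations.

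For genes without a count in BM total RNA, 3 counts over the group were taken as the most that could have been missed, 1.91 CPM. Insig1 was then at least 13.6-fold higher in LY6C and at least 15.7-fold higher in LY6G, Sqle at least 4.50-fold and 3.53-fold, and Mvd at least 3.24-fold and 2.64-fold. The bounds of Insig2 were 1.32-fold and 1.92-fold, and that of Idi1 in LY6C was 1.15-fold. The bounds of Idi1 in LY6G (0.907) and of Nr1h3 (0.304 in LY6C and 0.517 in LY6G) lie under 1 and leave no direction. With 2 pooled counts, Abcg1 had a ratio of 40.0 in LY6C (95% counting interval 11.1 to 330) and 37.4 in LY6G (10.3 to 309). With 1 pooled count, Hmgcs1 had a ratio of 36.5 (6.55 to 1443) and 31.8 (5.70 to 1255). These intervals cover counting error only.

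Members with more counts in BM total RNA differed less. Srebf2 held 27.5, 11.5 and 31.0 CPM in BM total RNA, below each sorted library, and differed by 1.52 ± 0.40 (adjusted p = 0.00701) in LY6C and 1.06 ± 0.39 (adjusted p = 0.0465) in LY6G, a call lost under 6 of 9 alternatives. Nr1h2, the LXR beta gene, differed by 1.82 ± 0.53 (adjusted p = 0.0141) and 1.73 ± 0.53 (adjusted p = 0.0172), each call lost under 2 of 9 alternatives. Srebf1 differed by 0.68 ± 0.35 (adjusted p = 0.160) in LY6C, and its LY6G libraries at 18.4 to 22.4 CPM lay within the BM range of 10.6 to 26.9. Mylip differed by -0.86 ± 0.50 (adjusted p = 0.220) and -0.75 ± 0.50 (adjusted p = 0.275), and was the 1 member with all LY6C libraries below all BM libraries (6.14% of all genes), which no member had in LY6G (8.45%). Stard4, at 9.54 ± 0.962 (SD, n = 3) CPM in BM total RNA, overlapped the sorted libraries of both populations. Abca1, at 1.64 to 16.5 CPM in BM total RNA, overlapped LY6C and lay below all 3 LY6G libraries. Without BM total library 1 the counts of called members were 6 in LY6C and 5 in LY6G, and without BM total library 2 they were 5 and 5. Fitting the compared libraries alone called 6 in LY6C, and the replicate block called 15 in each.

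Polysomal RNA was set against total RNA of the same kind of sample to ask whether these transcripts are over- or under-represented on ribosomes. No member passed in LY6C, LY6G or BM, where 0%, 0% and 3.39% of all genes were called. At an unadjusted p under 0.05 these fits held 0, 0 and 5 members and 433, 254 and 2759 of all genes. The differences of polysomal minus total between LY6G and LY6C, LY6C and BM, and LY6G and BM called 0 members too, against 0%, 0.338% and 0.416% of all genes. DESeq2 also called 0 members in each of these comparisons.

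Within the 6 same-numbered sorted pairs, 11 of 29 members were higher in polysomal RNA in 6 of 6, against 16.8% of all genes. These are 9 on the synthesis side (Hmgcs1, Acat2, Mvd, Sqle, Lss, Nsdhl, Ebp, Srebf1 and Srebf2) and 2 on the efflux side (Abca1 and Abcg1). Mvd, Nsdhl, Ebp and Abcg1 kept 6 of 6 under each of the 4 other scalings tried, while Abca1 had 5 of 6 under all of them and Srebf2 4 of 6 under 1. The synthesis side count was 4 to 9 over these scalings. The shifts were small for the regulators: Srebf2 was 0.14 to 0.32 and Srebf1 0.16 to 0.45 higher in polysomal RNA on the log2 scale, with a median over all genes and pairs of 0.02. Ebp, the sterol isomerase, ranged from 0.19 to 2.03 and Nsdhl from 0.11 to 1.41, and both were farthest from 0 in number 6 of either population. Fitted over the groups, Srebf1 differed by 0.19 ± 0.30 in LY6C and 0.33 ± 0.30 in LY6G, Srebf2 by 0.21 ± 0.34 and 0.24 ± 0.34, and Hmgcs1 by 0.31 ± 0.51 and 0.19 ± 0.51 (edgeR adjusted p = 1 for each).

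Insig1 was the single member lower in polysomal RNA in 6 of 6 pairs, against 11.6% of all genes. LY6C held 27.6, 39.7 and 10.7 CPM in total and 18.5, 31.1 and 10.3 CPM in polysomal RNA, and LY6G 37.0, 38.1 and 15.3 CPM in total and 27.1, 26.5 and 8.41 CPM in polysomal RNA. The pairs gave -0.57, -0.35 and -0.06 in LY6C and -0.44, -0.53 and -0.86 in LY6G, and the count stayed at 6 of 6 lower under each of the 4 other scalings. The fitted differences were -0.38 ± 0.60 in LY6C and -0.54 ± 0.60 in LY6G, within the spread between libraries without pairing (edgeR adjusted p = 1). Insig2 was lower in 5 of 6 pairs, with pairs from -1.54 to 0.39, and Mylip in 5 of 6, with pairs from -0.49 to 0.22. Idi1 was higher in 4 of 6 pairs, Stard4 in 3 and Nr1h3 in 3.

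**Figure D5:**
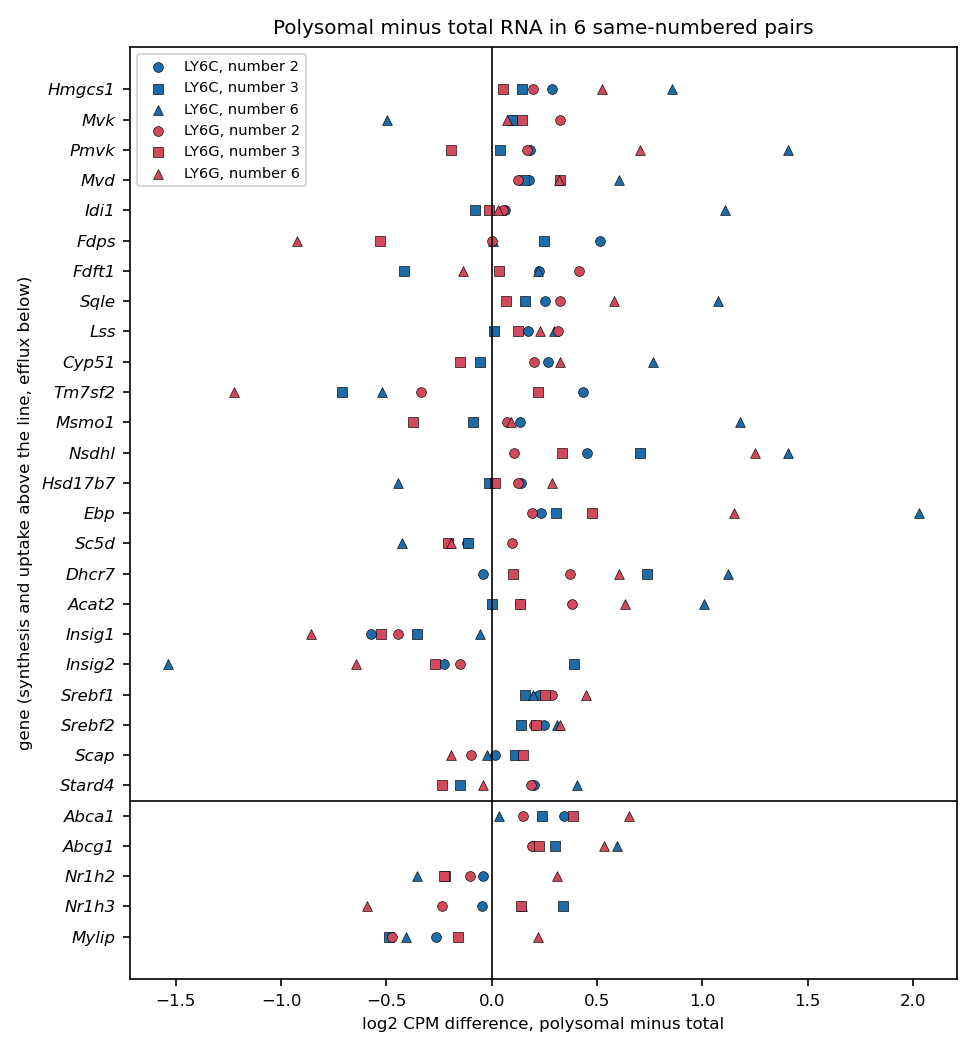
Log2 CPM difference, polysomal minus total RNA, for each of the 29 genes in the 6 same-numbered pairs of sorted libraries (colour for the population, shape for the number). All Insig1 points lie left of 0, and all points of Srebf1 and Srebf2 lie right of 0 between 0.14 and 0.45.

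In BM, Hmgcs1 held 4.28, 11.0 and 4.22 CPM in polysomal RNA and 0, 0 and 2.07 CPM in total RNA, the last being 1 count, and Abcg1 9.45 ± 2.71 and 1.25 ± 1.11 (SD, n = 3) CPM. The fitted differences were 3.19 ± 1.34 (edgeR adjusted p = 0.189) and 2.84 ± 0.86 (adjusted p = 0.0706), values that few counts decide. With the replicate block, 1 member was called in BM, Hmgcs1 (adjusted p = 0.0469). That fit joins BM libraries of the same number, whose pairing was not shown.

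Other genes of cholesterol and lipid handling were followed as lists. Against BM in polysomal RNA, 5 of 9 genes of lysosomal release, transfer and esterification were called higher in LY6C and 5 of 9 in LY6G, the same 5 in both. They are Lipa, the lysosomal acid lipase, Npc1 and Npc2, which pass cholesterol out of lysosomes, Soat1, which esterifies it, and Nceh1, an ester hydrolase. Soat1 averaged 94.5 CPM in LY6C, 105 in LY6G and 15.8 in BM polysomal RNA, and Npc1 33.1, 41.1 and 6.54 CPM. Of the other LXR side and oxysterol genes, 6 of 11 tested were called higher in LY6C and 5 in LY6G, among them Plin2, Arl4c and Ch25h. The fatty acid genes of the SREBP-1 side gave 5 higher and 1 lower of 11 in LY6C and 4 higher and 1 lower in LY6G, with Acly at 113, 92.3 and 29.8 CPM. The one called lower in both was Scd1, a stearoyl-CoA desaturase, at 1.62 and 1.15 CPM in the sorted cells and 7.43 in BM.

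The isoprenoid branch gave 4 higher of 11 in LY6C, and 3 higher and 1 lower in LY6G. SREBP processing and enzyme turnover gave 2 higher and 1 lower of 8 in LY6C, and 5 higher and 1 lower in LY6G. Rnf145, an E3 ligase of the SREBP escort, was the one called lower in both populations. All genes tested were called higher at 20.2% in LY6C and 22.1% in LY6G and lower at 11.2% and 15.3%, so the counts of the processing list in LY6C are near the background. By replicate number, 7 of 11 fatty acid genes were above and 1 below in 4 of 4 in number 3, and 5 were below and 2 above in number 6. Of 11 other LXR side genes, 5 were below and 1 above in number 3, and 3 above and 2 below in number 6. Of 11 isoprenoid genes, 3 were above and 0 below in number 3, and 2 above and 0 below in number 6. The shares of all genes given above, 21.4% above and 21% below in number 3 and 20.5% above and 19.5% below in number 6, are the background of these counts. Between LY6G and LY6C and in polysomal minus total RNA of sorted cells, 0 genes of these lists were called, as of all genes.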

How the data were processed

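RNA-seq libraries were made with a stranded total RNA kit with ribosomal RNA depletion, per the labels' protocols. The authors deposited 1 table of raw counts per gene and library. The submitters' processing notes name STAR 2.5.2a, FastQC, DESeq, DESeq2 and the builds GRCm38 and mm10; the counting program, annotation and strand setting are not given in the sources used here, so reads of overlapping genes cannot be told apart. GENCODE M21 named 54809 of 54838 rows, and 29 were left unnamed.

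Counts were tested with edgeR 4.0.16 (R 4.3.3) by the robust quasi-likelihood test on 18 libraries and 6 group means, with TMM scaling, filterByExpr at a minimum count of 10 (14181 genes kept), a prior count of 2 and Benjamini-Hochberg adjustment, calling an adjusted p under 0.05. Standard errors are the log2 difference divided by the square root of F. The script was tested on simulated data. Alternatives used DESeq2 1.42.0, voom in limma 3.58.1 with library quality weights, size factors by median ratios, all genes unfiltered, the compared libraries alone, nuclear protein-coding genes alone, a replicate block and each library left out. Leaving out the 4 sorted libraries numbered 6, leaving out the 2 LY6C libraries numbered 3, and the other scalings of pair and number counts were chosen after seeing the data. Same-numbered sorted libraries deviated together from their group means (correlation 0.267 to 0.737, above the 0.1 set as the limit for every pair). BM libraries stayed under that limit (0.00465 to 0.027). BM total RNA held 0.472 to 0.611 counts per CPM, too few for this check to decide whether BM numbers pair. Pairs were therefore counted in sorted libraries only. The replicate block was set within sorted cells and within BM, so it also joins same-numbered BM libraries, whose pairing was not shown. The labels do not say that libraries of a group come from separate cultures, and p-values measure only the spread between these libraries, which may be technical.

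The members and gene lists were chosen with earlier results of these data known. Hmgcs1, Idi1, Sqle, Insig1, Insig2, Srebf1, Srebf2, Stard4, Abca1, Abcg1, Nr1h3 and Mylip were to be named in every comparison whatever their values, together with members that passed a test; further members with separate groups or a common sign over pairs were named after their values were seen. Total counts ran from 8559897 to 26225431 per library.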

Additional observations from a re-analysis of the deposited data

Results flagged for a closer look

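Msmo1, the sterol-C4 demethylase, had opposite signs of LY6G minus LY6C in the RNA fractions. In total RNA the pairs numbered 2, 3 and 6 gave 0.00, 0.27 and 0.17 on the log2 scale, and in polysomal RNA -0.06, -0.02 and -0.92. The mean over pairs was 0.48 higher in total than in polysomal RNA. Msmo1 was higher in LY6G in 3 of 6 pairs under the reported scaling and with TMM on sorted cells alone. With TMM on nuclear protein-coding genes this held in 4 of 6 pairs. With median-ratio factors or nuclear protein-coding counts without factors it held in 5 of 6, so the opposite signs depend on the scaling. edgeR's test of the difference between the fractions gave -0.42 ± 0.66 (SE) for polysomal minus total (adjusted p = 1), so the opposite signs were within the spread between libraries.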

How the results depend on the processing

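Of 60 single-gene values followed over the alternatives and left-out libraries, 10 changed sign under at least 1, none of them past the threshold. All 25 values past the threshold kept their sign, 17 of them passed under each alternative fit and 11 also with each library left out. Between LY6G and LY6C, Abca1 in total RNA turned to 0.23 with limma, 0.67 with the replicate block and 1.04 without the libraries numbered 6, and in polysomal RNA to -0.17 without the 2 LY6C libraries numbered 3. Without those 2, Hmgcs1 and Sqle in total RNA turned to 0.28 and 0.21. With single libraries left out, total RNA values ran from -0.80 to 0.29 for Hmgcs1, -1.06 to 0.21 for Sqle, -0.14 to 0.64 for Insig1 and -1.86 to 2.71 for Abca1, and polysomal values from -0.26 to 0.52 for Insig1 and -1.66 to 3.02 for Abca1. Polysomal minus total ran from -0.14 to 0.92 for Hmgcs1, -0.84 to 0.0033 for Insig1 and -0.034 to 0.49 for Srebf2 in LY6C, and from -0.13 to 0.62 for Hmgcs1 in LY6G.

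Members called against BM ran, with single libraries left out, from 5 to 11 in LY6C total, 5 to 11 in LY6G total, 8 to 14 in LY6C polysomal and 5 to 11 in LY6G polysomal RNA. Fitting the compared libraries alone called 6 in LY6C total RNA, and LY6G polysomal RNA gave 14 with DESeq2. The replicate block gave 15 in LY6C total, 15 in LY6G total, 17 in LY6C polysomal and 15 in LY6G polysomal RNA, and 1 in BM polysomal minus total RNA, as did leaving out the 2 LY6C libraries numbered 3. In comparisons without BM the block called 0 members. Synthesis side genes higher in polysomal RNA in 6 of 6 pairs numbered 5 with median-ratio factors and 4 with nuclear protein-coding counts without factors. Where no value is given for a cause, the cause was not tested. BM total RNA, at 51 to 63 counts over all members, limits every value against it.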
